A study of Rattus norvegicus with 8 samples.

Results

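Transcript levels of 4 microglial marker genes, Aif1, Itgam, Cd68 and Tyrobp, were compared in the hippocampus of hypertensive and normotensive rats. The members were the rows of the count table with the Ensembl IDs ENSRNOG00000000853 (Aif1), ENSRNOG00000019728 (Itgam), ENSRNOG00000037563 (Cd68) and ENSRNOG00000020845 (Tyrobp), 4 of 32623 genes in all. These symbols came with the definition of the set. The deposited files hold IDs only, so the pairing of ID and symbol was not checked here. RNA sequencing had been performed on whole hippocampal tissue of rats of 2 strains, all 32 weeks old, with 4 libraries for each. Spontaneously hypertensive rats (SHR) are inbred and become hypertensive with age. Wistar-Kyoto rats (WKY) are a related strain and served as the control with normal blood pressure. The labels name no allele, diet or drug beyond strain other than the sodium pentobarbital given to all rats for anaesthesia, and they do not give sex. Whether each library is a separate animal is not stated either, so the p-values reflect only how far these libraries differ among themselves, and part of that may be technical.

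Microglia are the resident macrophages of the brain. They survey the tissue, clear debris and synaptic material, and change shape and transcription after injury. Aif1 encodes IBA1, an actin-binding protein whose antibody stain is the usual histological label of microglia. Itgam encodes CD11b, the alpha subunit of the complement receptor that microglia use for adhesion and uptake. Cd68 encodes a heavily glycosylated protein of lysosomes and endosomes, often read as a sign of phagocytic activity. Tyrobp encodes DAP12, a membrane adaptor that passes on signals from receptors such as TREM2. None of the 4 is restricted to microglia, since border-associated macrophages and blood myeloid cells can also express them.

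The myeloid transcription factor PU.1 binds purine-rich sites with the core GAGGAA, and this core was looked for on both strands of the promoters. RefSeq promoter sequences (GRCr8, 250 bases before to 50 after the start) were matched by symbol for 2 of the 4 members, Itgam and Cd68. They are shown because no other member was matched, and no link of the core to the levels of these genes was tested. Only the stretch upstream of the annotated gene is printed, and capitals mark the core as GAGGAA or its reverse complement TTCCTC. Itgam is shown at chr1:192089342-192089495 on the plus strand, and Cd68 at chr10:54882442-54882691 on the minus strand, each 5′ to 3′.
Itgam: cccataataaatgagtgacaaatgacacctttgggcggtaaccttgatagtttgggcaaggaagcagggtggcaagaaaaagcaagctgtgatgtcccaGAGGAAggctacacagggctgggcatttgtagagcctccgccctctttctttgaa
Cd68: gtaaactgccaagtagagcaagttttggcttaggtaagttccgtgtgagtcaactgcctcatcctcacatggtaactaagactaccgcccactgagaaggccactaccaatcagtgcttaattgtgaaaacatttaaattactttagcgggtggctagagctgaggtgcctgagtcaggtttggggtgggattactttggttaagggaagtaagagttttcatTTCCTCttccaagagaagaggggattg
Each of these 2 promoters held 2 matches in its full 300 bases, of which 1 lies in the printed stretch. The core was present in 27.6% of 33469 rat promoters of the same length, so its presence is common and describes the letters only. Aif1 and Tyrobp were not matched.

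The libraries held 45048841 to 49560687 counts in SHR and 53045139 to 53699673 in WKY, with no overlap between the strains. Levels are therefore given as CPM, that is, counts relative to the size of the library, after TMM scaling. A step of preparation or sequencing that gave the difference in totals cannot be told apart from strain. The library labelled WKY replicate 4 stood apart from the other WKY libraries. A principal component analysis of log2 CPM gave a first component with 26.7% of the variance, on which it scored 36.7, WKY replicates 1 to 3 scored -40.9 to -30.5, and the SHR libraries scored 11.5 to 28.9. The strain differences, the correlations of members and their ratios are given with and without it. Markers of neurons, other glia, vessels, blood and other myeloid cells could not be matched to IDs, so neither the tissue label nor the part of other cell types in the results was tested.

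In the SHR hippocampus the mean level of all 4 genes was lower than in WKY, by 1.19-fold for Itgam to 1.58-fold for Cd68, but none of the 4 differences passed the test. The test was edgeR's quasi-likelihood F test over the whole table, with Benjamini-Hochberg adjustment over 16867 genes and a threshold of 0.05. It called 6 genes, or 0.0356% of those tested, so a count of 0 of 4 members is near the background. At an unadjusted p under 0.05, 2 members (Aif1 and Tyrobp) were lower in SHR in edgeR, where 7.24% of all genes tested were. Aif1 was so under all 15 other settings set at the start. Tyrobp was so in 9 of them and missed in 6 (p from 0.0533 to 0.103), namely with the replicate block and without WKY replicate 1, 2 or 3 or SHR replicate 2 or 3. DESeq2 (1.98% of genes called) and limma-voom (0.0296%) also called 0 of the 4. At an unadjusted p under 0.05, Aif1 and Tyrobp were lower in SHR with both tools, as were 7.42% of all genes in DESeq2 and 6.74% in limma-voom. The median log2 fold change of the 4 was -0.57, beside a median of -0.00435 over all genes tested. These medians were -0.70 and -0.00065 without WKY replicate 4. In bulk tissue, fewer microglia and less of a transcript per cell cannot be told apart.

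**Figure D1:**
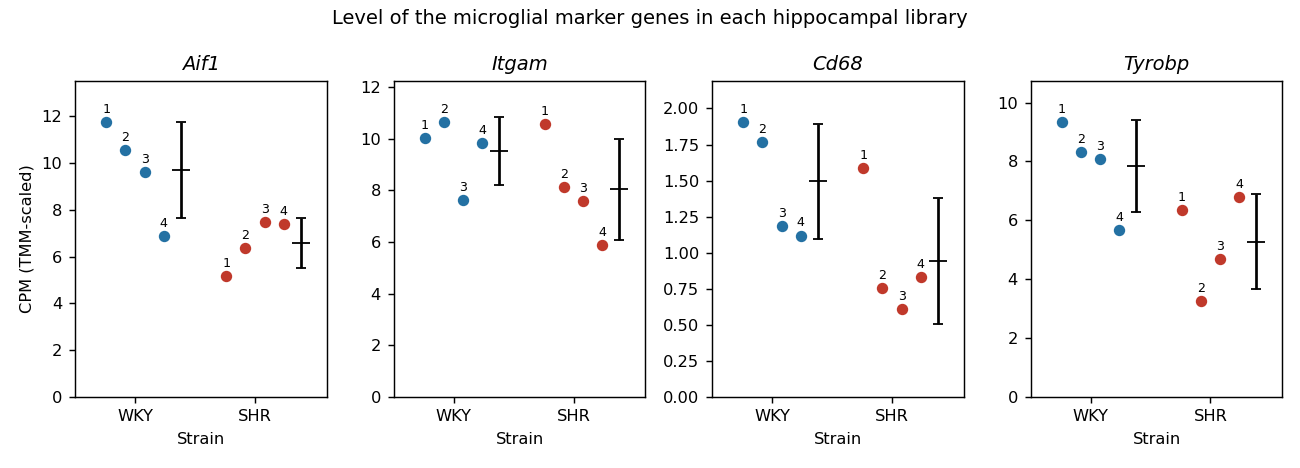
CPM (TMM-scaled, linear axis from 0) of each gene in the 4 WKY and 4 SHR libraries; points are libraries with their replicate numbers, and the bars beside them are the mean ± SD (n = 4). For Aif1 and Tyrobp the WKY replicates 1 to 3 lie above every SHR library while WKY replicate 4 lies within the SHR range. For Itgam SHR replicates 1 and 2 lie within the WKY range, and for Cd68 SHR replicate 1 does.

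Aif1, the gene of the standard microglial stain, showed the lowest p of the 4. It was at 5.17, 6.35, 7.47 and 7.37 CPM in SHR replicates 1 to 4, from 225 to 382 counts. In WKY replicates 1 to 4 it was at 11.7, 10.6, 9.64 and 6.90 CPM, from 370 to 623 counts. WKY replicates 1 to 3 were the 3 highest libraries of all 8, and WKY replicate 4 lay below SHR replicates 3 and 4. The mean ± SD over the 4 SHR libraries was 6.59 ± 1.08 CPM, against 9.71 ± 2.06 CPM over the 4 WKY libraries. The log2 fold change was -0.56 ± 0.19 (SE; edgeR, unadjusted p = 0.0138, adjusted p = 0.288), with a 95% confidence interval from -0.98 to -0.14. This interval spans a level in SHR that is up to 1.97-fold lower. An exact permutation test of the mean log2 CPM over the 70 assignments of the libraries gave a two-sided p of 0.0857, where the smallest possible is 0.0286.

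Without WKY replicate 4 the ranges of Aif1 did not overlap, with all 4 SHR libraries at or below 7.47 CPM and the other WKY libraries at or above 9.64 CPM. The log2 fold change was then -0.69 ± 0.16 (edgeR, adjusted p = 0.0543), a 1.61-fold lower level in SHR that missed the threshold. DESeq2 without the same library called Aif1 (log2 fold change -0.69, adjusted p = 0.00387), and limma-voom did not (adjusted p = 0.0518). These last fits were chosen after the data were seen, and the library was left out because it stands apart. Without this library DESeq2 called 1216 genes (7.14%), edgeR 458 (2.69%) and limma-voom 436 (2.56%).

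Tyrobp, the adaptor gene, showed the same order of the strains as Aif1. It was at 6.36, 3.27, 4.68 and 6.79 CPM in SHR replicates 1 to 4, from 152 to 326 counts. It was at 9.34, 8.32, 8.08 and 5.67 CPM in WKY replicates 1 to 4, from 304 to 495 counts. Again WKY replicates 1 to 3 were the 3 highest libraries, and WKY replicate 4 lay below SHR replicates 1 and 4. The mean ± SD over the 4 SHR libraries was 5.27 ± 1.62 CPM, against 7.85 ± 1.55 CPM over the 4 WKY libraries. The log2 fold change was -0.57 ± 0.24 (edgeR, unadjusted p = 0.0386, adjusted p = 0.386), with a 95% confidence interval from -1.11 to -0.036. The exact permutation test gave p = 0.0857. Without WKY replicate 4 the ranges did not overlap, with a log2 fold change of -0.70 ± 0.23 (adjusted p = 0.152 in edgeR; DESeq2, 0.0604; limma-voom, 0.112).

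Ranges that do not overlap were not rare in these libraries. Over all 8, the CPM of every SHR library was below that of every WKY library at 3.84% of genes tested, and this was so for 0 of the 4 members. Without WKY replicate 4 the share of all genes was 9.07%, and it held for Aif1 and Tyrobp. Their order among all genes was also not extreme. By p-value over 8 libraries Aif1 ranked 808 and Tyrobp 1686 of 16867 genes. A log2 fold change as low as that of Aif1 or lower was found at 5.61% of genes tested, and as low as that of Tyrobp at 5.40%.

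Cd68, the lysosomal marker, had the fewest counts, and its strain difference was the least precise. It was at 1.58, 0.753, 0.606 and 0.833 CPM in SHR replicates 1 to 4, from only 31 to 69 counts. It was at 1.90, 1.77, 1.18 and 1.12 CPM in WKY replicates 1 to 4, from 60 to 101 counts. SHR replicate 1 lay above WKY replicates 3 and 4, and the other 3 SHR libraries lay below all WKY libraries. The mean ± SD over the 4 SHR libraries was 0.944 ± 0.437 CPM, against 1.49 ± 0.401 CPM over the 4 WKY libraries. The log2 fold change of -0.66 ± 0.35 was the largest of the 4 in size but did not pass (edgeR, unadjusted p = 0.0885, adjusted p = 0.491). Its 95% confidence interval ran from -1.45 to 0.12, that is, from a 2.73-fold lower level in SHR to a slightly higher one. The exact permutation test gave p = 0.114.

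The value for Cd68 moved most with SHR replicate 1. Without SHR replicate 1 it was -1.03 ± 0.32 (edgeR, unadjusted p = 0.0105, adjusted p = 0.345), and the 3 SHR libraries then lay below all 4 WKY libraries. Without WKY replicate 4 it was -0.78 ± 0.37 (edgeR, adjusted p = 0.321). It shrank to -0.49 without SHR replicate 3 (edgeR, unadjusted p = 0.210, adjusted p = 0.577), to -0.52 without WKY replicate 1 and to -0.56 without SHR replicate 2. Cd68 had a biological coefficient of variation of 0.350, beside 0.210 for Aif1, 0.208 for Itgam and 0.258 for Tyrobp.

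Itgam, the integrin gene, had the smallest fitted difference between the strains. It was at 10.6, 8.12, 7.57 and 5.87 CPM in SHR replicates 1 to 4, from 282 to 461 counts. It was at 10.01, 10.6, 7.61 and 9.85 CPM in WKY replicates 1 to 4, from 405 to 559 counts. SHR replicate 1 was the second highest of all 8 libraries, and WKY replicate 3 lay with SHR replicates 2 and 3. The mean ± SD over the 4 SHR libraries was 8.04 ± 1.95 CPM, against 9.53 ± 1.32 CPM over the 4 WKY libraries. The log2 fold change was -0.25 ± 0.19 (edgeR, unadjusted p = 0.217, adjusted p = 0.638), with a 95% confidence interval from -0.66 to 0.17. The interval leaves room for a level up to 1.58-fold lower in SHR. The exact permutation test gave p = 0.286.

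Unlike in the other 3 members, WKY replicate 4 was not near the SHR mean for Itgam. At 9.85 CPM it was nearer to the mean of the other WKY libraries (9.42 CPM), and without it the log2 fold change was -0.23 ± 0.20 (SE; adjusted p = 0.624 in edgeR). For Aif1, Cd68 and Tyrobp it was nearer to the SHR mean. Over all genes tested, WKY replicate 4 was nearer to the SHR mean at 58.0%. The value for Itgam depended more on single SHR libraries. It was -0.40 ± 0.17 without SHR replicate 1 (edgeR, unadjusted p = 0.0453, adjusted p = 0.439) and -0.12 ± 0.18 without SHR replicate 4 (edgeR, adjusted p = 0.868).

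**Figure D2:**
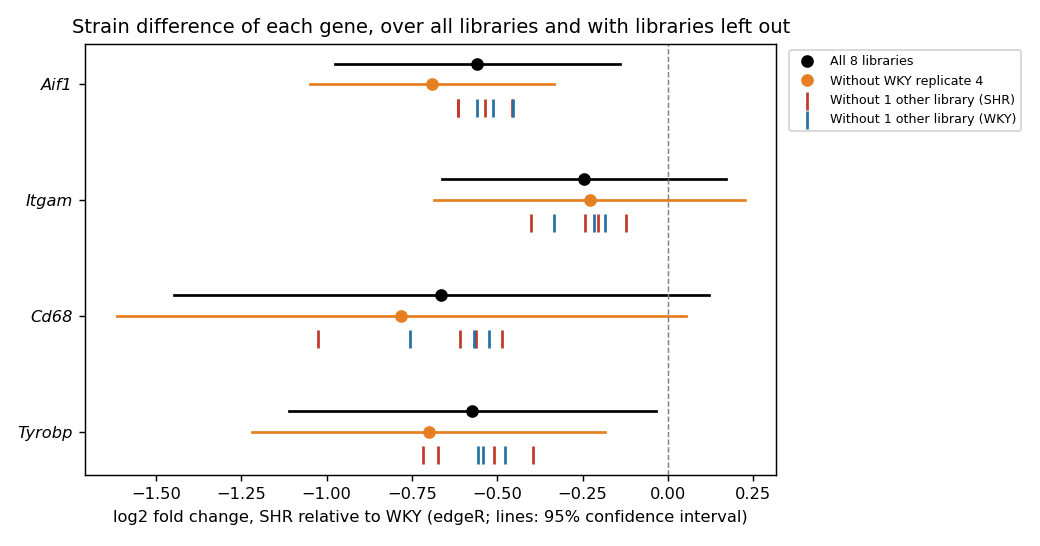
Log2 fold change of SHR relative to WKY for each gene (horizontal axis, 0 dashed). Circles with lines are the edgeR estimate and its 95% confidence interval over all 8 libraries and without WKY replicate 4, and ticks are the estimates with 1 other library left out, coloured by its strain. All estimates lie below 0. Among the estimates over all 8 libraries that of Itgam is nearest to 0, and the intervals of Cd68 and Itgam cross 0.

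**Figure D3:**
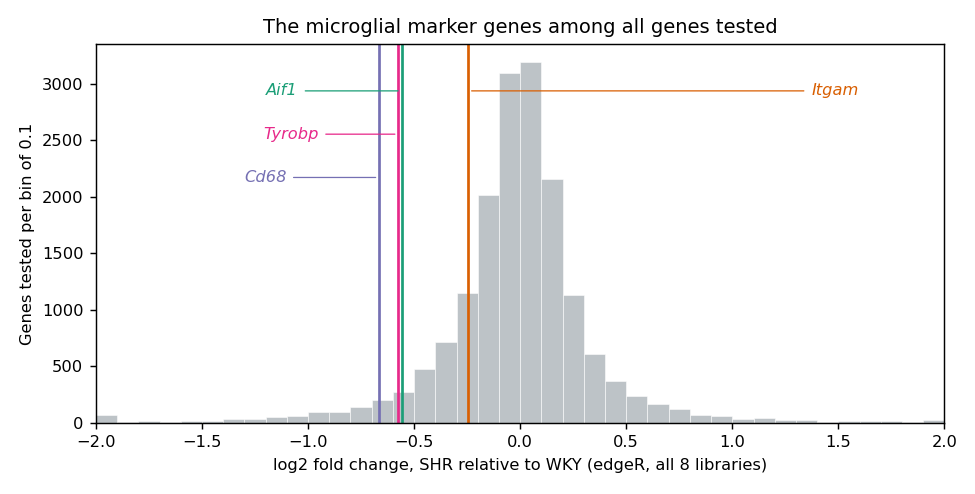
Number of genes tested (vertical axis) in each bin of 0.1 of the log2 fold change over all 8 libraries (horizontal axis, values beyond 2 in the outermost bins). Coloured lines mark the 4 members at -0.66 (Cd68), -0.57 (Tyrobp), -0.56 (Aif1) and -0.25 (Itgam), to the left of the median of all genes at -0.00435.

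The plot of fold changes over all genes shows where the members lie. A fold change as low as that of Cd68 or lower was found at 4.23% of genes tested, and as low as that of Itgam at 16.96%. A lower fitted level in SHR was found at 50.8% of all genes and at all 4 members. The spread of the members between libraries of a strain was above that of most genes of like abundance. Among genes within 0.5 of its average log2 CPM, the share with a smaller biological coefficient of variation was 80.9% for Tyrobp, 69.1% for Itgam, 66.9% for Aif1 and 55.7% for Cd68. Leaving out WKY replicate 4, the share fell to 44.0% for Aif1, while it was 84.0% for Tyrobp, 79.1% for Itgam and 63.1% for Cd68.

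The 4 genes did not follow a single order of the libraries. WKY replicate 1 was highest for Aif1, Cd68 and Tyrobp, and WKY replicate 2 for Itgam. The lowest library was a different one for each gene, namely SHR replicate 1 for Aif1, SHR replicate 2 for Tyrobp, SHR replicate 3 for Cd68 and SHR replicate 4 for Itgam. SHR replicate 1 thus held the lowest level of Aif1 and, among SHR libraries, the highest levels of Itgam and Cd68.

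Across the 8 libraries, 6 pairs of members were compared on log2 CPM, and the adjusted values are over these 6. Cd68 and Tyrobp went together most closely (Pearson r = 0.766, exact permutation p = 0.0239, adjusted p = 0.122; Spearman rho = 0.857, p = 0.0107, adjusted p = 0.0643). Itgam and Cd68 had r = 0.741 (exact permutation p = 0.0408, adjusted p = 0.122; rho = 0.762, p = 0.0368, adjusted p = 0.0735). Aif1 and Tyrobp had r = 0.678 (exact permutation p = 0.0629, adjusted p = 0.126; rho = 0.762, p = 0.0368, adjusted p = 0.0735). None of these pairs passed after adjustment.

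For the remaining pairs r was lower. It was 0.431 for Aif1 and Cd68 (exact permutation p = 0.279, adjusted p = 0.419; rho = 0.476, p = 0.243, adjusted p = 0.365). Itgam and Tyrobp had r = 0.245 (exact permutation p = 0.554, adjusted p = 0.665; rho = 0.381, p = 0.360, adjusted p = 0.432). Aif1 and Itgam had r = 0.0924 (exact permutation p = 0.836, adjusted p = 0.836; rho = 0.0952, p = 0.840, adjusted p = 0.840).

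These relations hold the strain difference as well as the spread within strains. Without the 2 libraries farthest from the median of the first-named gene, r was 0.668 for Cd68 and Tyrobp, 0.766 for Itgam and Cd68, 0.843 for Aif1 and Tyrobp, 0.758 for Aif1 and Cd68, 0.371 for Itgam and Tyrobp and 0.313 for Aif1 and Itgam. With the strain means removed, r was 0.599 for Cd68 and Tyrobp and 0.650 for Itgam and Cd68. It was 0.385 for Aif1 and Tyrobp, -0.0675 for Aif1 and Cd68, -0.0913 for Itgam and Tyrobp and -0.418 for Aif1 and Itgam. For all 6 pairs r was thus lower once the strain means were removed. Without WKY replicate 4 (7 libraries) r was 0.770 for Cd68 and Tyrobp, 0.770 for Itgam and Cd68, 0.672 for Aif1 and Tyrobp, 0.437 for Aif1 and Cd68, 0.286 for Itgam and Tyrobp and 0.150 for Aif1 and Itgam, all close to the values over 8 libraries. With 4 libraries a strain, no relation was tested within a strain.

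For every pair of members, many other genes followed a member more closely than the other member did. Over the 8 libraries, the genes whose log2 CPM correlated with that of Aif1 at r of at least 0.9 numbered 138 of the 13472 whose average log2 CPM was 1 or more. The number was 39 for Tyrobp, 4 for Itgam and 29 of 13473 for Cd68. These numbers were, without WKY replicate 4, 214 for Aif1, 82 for Tyrobp, 15 for Itgam and 68 for Cd68. An r of 0.9 is easier to reach with 7 libraries than with 8. The rise can therefore not be read as closer likeness, and its cause was not tested. Both sets of numbers also hold the strain difference. Of 16866 other genes tested, 8.64% correlated more closely with Aif1 than Tyrobp did, and 22.6% more closely than Cd68 did. Itgam was outranked there by 45.2%. The closer pairs were outranked by fewer genes. For Itgam, 1.84% of other genes were more alike than Cd68. For Cd68, 2.85% were more alike than Tyrobp and 3.58% more than Itgam, and for Tyrobp 2.89% were more alike than Cd68. Whether these numbers exceed what unrelated genes give was not tested, and the genes are not named because their IDs could not be paired with symbols.

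The ratio of a pair of genes within a library is almost free of the scaling of libraries, and it shows whether members moved alike. Ratios compare a pair between libraries only, since they also hold the lengths of the transcripts. No pair's mean log2 ratio differed between the strains in an exact permutation test (6 pairs, p from 0.143 to 0.857, all adjusted p = 0.857). The largest difference was for Itgam to Cd68, with a mean log2 ratio (± SD, n = 4) of 3.10 ± 0.43 in SHR, against 2.67 ± 0.31 in WKY. The smallest p that 8 libraries allow is 0.0286, and even with all 3 pairs that hold Itgam at that value the adjusted p would be 0.0571. The adjusted test could therefore not set Itgam apart from the other members. With WKY replicate 4 left out, Itgam to Cd68 differed by 0.57 on the log2 scale (exact permutation p = 0.0571, the smallest that 7 libraries allow), Itgam to Tyrobp by 0.51 (p = 0.229) and Aif1 to Itgam by -0.45 (p = 0.229), SHR minus WKY. With any 1 library left out, the differences ran from 0.28 to 0.57 for Itgam to Cd68, from 0.11 to 0.62 for Itgam to Tyrobp and from -0.48 (without SHR replicate 4) to -0.027 (without SHR replicate 1) for Aif1 to Itgam. Aif1 to Cd68 went from 0.15 over all libraries to 0.53 without SHR replicate 1 (exact permutation p = 0.0571).

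The spread of the ratios differed more visibly than their means. Aif1 to Tyrobp was at log2 ratios of 0.33, 0.34, 0.25 and 0.28 in WKY replicates 1 to 4, an SD of 0.042. In SHR replicates 1 to 4 it was at -0.30, 0.95, 0.67 and 0.12, an SD of 0.56. Each SD rests on 4 values and is itself imprecise. The SD of 0.042 comes from 370 to 623 counts of Aif1 and 304 to 495 of Tyrobp. It was not compared with the spread that counting alone gives. All 4 WKY libraries, replicate 4 included, lay inside the SHR range. WKY replicate 4 therefore held lower Aif1 and lower Tyrobp than the other WKY libraries but a ratio within their range. For all 6 pairs the SD was larger in SHR (0.43 to 0.80) than in WKY (0.042 to 0.38). This rested on single libraries for some pairs. Without SHR replicate 1 the SD of Aif1 to Itgam was 0.34 in SHR against 0.38 in WKY, and that of Aif1 to Cd68 in SHR dropped from 0.80 to 0.29. Without SHR replicate 4 the SD of Itgam to Tyrobp was 0.34 in SHR against 0.38 in WKY. The other 4 pairs kept the larger SD in SHR with any 1 library left out. This was noticed in the data, the pairs share genes, and the difference in spread was not tested. The members also had fewer counts in SHR, for Cd68 31 to 69 against 60 to 101 in WKY. For Tyrobp they were 152 to 326 against 304 to 495. Log2 ratios of smaller counts spread more by counting alone, and this part of the SD was not tested.

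**Figure D4:**
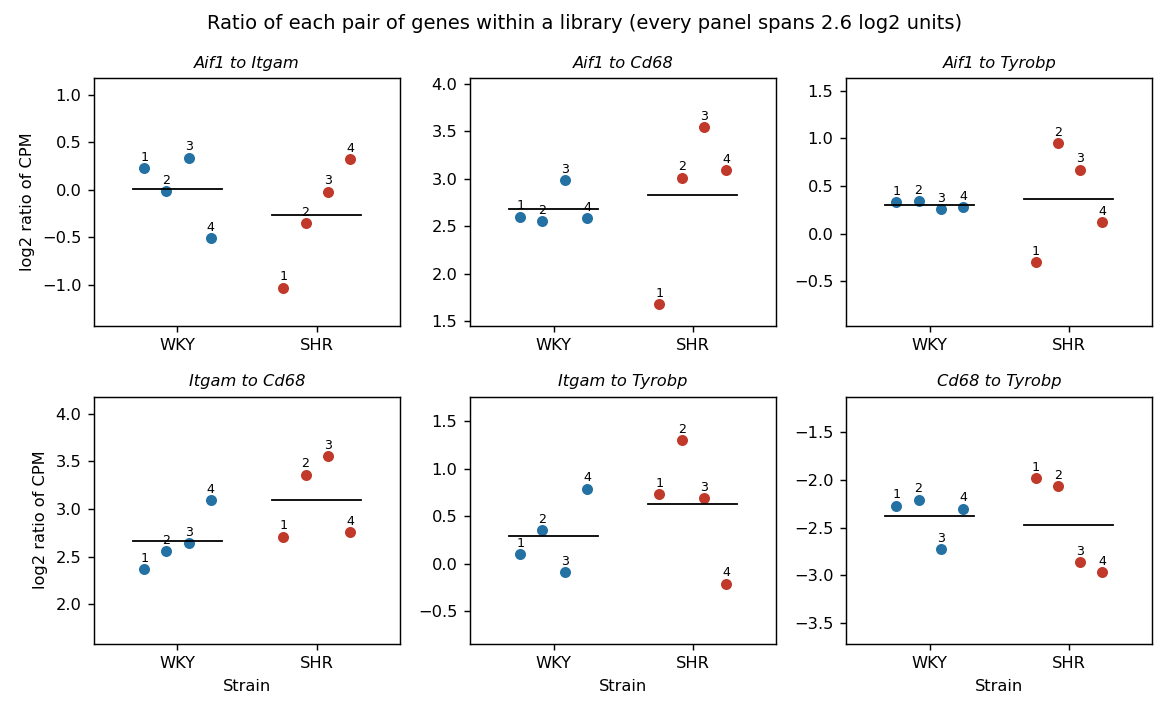
Log2 ratio of CPM of each pair of genes within each library (vertical axis, every panel spanning the same height) for the 4 WKY and 4 SHR libraries; points are libraries with their replicate numbers and lines are strain means. The ratio of Aif1 to Tyrobp lies between 0.25 and 0.34 in WKY and between -0.30 and 0.95 in SHR. The strain means differ most for Itgam to Cd68 (3.10 in SHR and 2.67 in WKY).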

How the data were processed

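The deposited values are raw counts of reads per gene for 8 libraries, as 1 matrix, used here, and as 8 single-library tables. In 4 of these the header carried another replicate number than the sample title, and titles were used. The table of SHR replicate 3 carried the title of another sample and was not used. The other 7 held the same values as the matrix. Per the submitters' processing notes, the build was rn6 and the tools included StringTie 1.3.4d, HISAT2 2.0.4 and cutadapt 1.9. Annotation release, strand setting and read filters: not given in the sources used here. Values of exactly 4 were more frequent than values of exactly 3 in each library (in WKY replicate 1 at 431 against 319 genes), so low counts may not be numbers of single fragments and no counting intervals were computed.

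Counts were tested with edgeR 4.0.16 (R 4.3.3): TMM scaling, filterByExpr, quasi-likelihood F test with strain as the only term, Benjamini-Hochberg adjustment over all genes tested. All 4 members passed the low-count filter. SE is the log2 fold change divided by the square root of F. Log2 CPM carried a prior count of 2. The alternatives were a block for the replicate number, leaving out each library, limma-voom (limma 3.58.1), DESeq2 1.42.0, robust empirical Bayes, RLE scaling, no filter, and a stricter filter (1 CPM or more in 4 libraries). Fits of DESeq2 and limma-voom without WKY replicate 4, ratios of members, and correlations without that library were chosen after seeing the data. The edgeR script was tested on simulated data as a check of the code. Its outcome is not given here and is no measure of the power to call differences as small as those of the members.

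The members and lists were chosen with earlier results of these data known. The 15 lists (206 symbols) of other microglial, pathway and cell type genes could not be matched, because 0 entries of the RefSeq gene table (GRCr8) carried an Ensembl ID, and 0 were tested. By the rule for named genes, all 4 members are named, and listed or most similar genes would be named only with symbols. In that table no other gene overlaps a member.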

Additional observations from a re-analysis of the deposited data

How the results depend on the processing

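The 4 log2 fold changes were recomputed under 17 alternatives each (15 planned, 2 added), and all 68 values were lower in SHR. These values are refits of the same libraries and are not independent of each other. They ranged from -0.69 to -0.45 for Aif1, -0.76 to -0.39 for Tyrobp, -1.03 to -0.49 for Cd68 and -0.40 to -0.12 for Itgam. Of the 68, 1 passed the threshold, that of Aif1 in DESeq2 without WKY replicate 4 (-0.69), so 1 of the 4 members was called there and 0 in every other alternative. The number of genes called over the whole table was 6 with RLE scaling and robust empirical Bayes and 5 in limma-voom. It was 3 with no filter, 4 with the stricter filter and 334 in DESeq2. It was 1 to 458 with 1 library left out, the highest without WKY replicate 4, where DESeq2 gave 1216 and limma-voom 436. The cause was not tested. With the replicate block 1 gene was called. Same-numbered libraries did not deviate together (r from -0.157 to -0.00338), so the numbers were not taken to pair them, and with this block Aif1 had a log2 fold change of -0.55, Tyrobp -0.61, Cd68 -0.71 and Itgam -0.26. The exact permutation tests stayed above the threshold in all 36 alternatives (p from 0.0571 to 0.571), but with 7 libraries 0.0571 is the smallest possible. Of 48 differences of log2 ratios with a library left out, 5 changed sign, all without SHR replicate 2, 3 or 4. For the pairs concerned, leaving out a library gave -0.087 to 0.53 for Aif1 to Cd68, -0.14 to 0.28 for Aif1 to Tyrobp and -0.26 to 0.074 for Cd68 to Tyrobp (SHR minus WKY). Counts of listed genes without WKY replicate 4 were not run, for want of symbols.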

Other observations

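Each gene was screened in each strain, 8 sets of 4 libraries in all, for a library set far apart by Dixon's 95% limit, and 0 were found. The widest gap was that of Cd68 in SHR replicate 1 (1.58 CPM), at 0.768 of the range of the SHR libraries, which is under that limit.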
